A study of Mus musculus with 10 samples.

Results

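The JAK, STAT and SOCS genes described here are 10 of the 19703 genes in the deposited expression table, taken by their symbols. They are the Janus kinase genes Jak1, Jak2, Jak3 and Tyk2, the transcription factor genes Stat3 and Stat5a, and the feedback inhibitor genes Socs1, Socs2, Socs3 and Cish. All 10 passed the filter on low counts, so each could be tested. RNA-seq had been run on the left ears of mice painted with MC903 (calcipotriol), a vitamin D analogue used in mice to raise an itchy, atopic dermatitis-like inflammation of the skin. Painting went on for 7 days in a row and was repeated on day 8, when the mice were dosed by gavage, and the ears were collected on day 13. The antagonist group received GSK1562590, a blocker of urotensin II receptors, dosed at 5 mg/kg in a volume of 100 µl, and the vehicle group the same volume of vehicle. Each group held 5 samples, numbered 4, 6, 7, 8 and 10 with antagonist and 3, 9, 10, 11 and 12 with vehicle, and values of single libraries are given in that order below. All ears carried MC903 and none without it was analysed here, so there is no uninflamed baseline. Strain, sex and age were not among the labels used here. The labels do not tie each sample to a separate mouse, so the p-values speak only of the spread between samples, which may be technical in part.

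Cytokine receptors of many families have no enzyme of their own and carry Janus kinases on their inner tails. Binding of a cytokine brings the kinases together, they phosphorylate the receptor and then STAT proteins, and paired STATs move to the nucleus and switch on target genes. Among those targets are the SOCS genes and Cish, whose proteins bind the receptor or the kinase and damp the signal, so that their transcripts are widely read as a trace of recent cytokine signalling. In skin the pathway carries the signals of interleukins 4, 13, 22 and 31, thymic stromal lymphopoietin and the interferons, and kinase inhibitors that target it are used against atopic dermatitis.

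Libraries held 20183024 to 20606007 expected counts over protein-coding genes. Groups were compared with the quasi-likelihood test of edgeR, and p-values were adjusted by Benjamini-Hochberg over all 15174 tested genes. By this test 34.1% of all genes passed an adjusted p of 0.05, 17.4% lower and 16.7% higher in antagonist ears, so a call by itself is common here. Marker genes of leukocytes, fibroblasts and cartilage mostly fell, and those of the other listed cell types did not. Of 17 tested leukocyte markers 13 fell and 0 rose. The summed TPM (a level per length of transcript) of the listed genes was 1320 to 2854 in antagonist libraries against 2903 to 5022 in vehicle libraries. That sum is weighted toward abundant genes. Among these S100a9 averaged 174 CPM (counts scaled to library size) in antagonist and 425 CPM in vehicle ears. S100a9 and S100a8 were called lower, but their ranges overlapped between groups. Ly6g and Cd79a, markers of neutrophils and B cells, did not pass the filter. Fibroblast markers fell in 7 of 9 and cartilage markers in 12 of 15, both with 0 higher, and the summed cartilage TPM was 104 to 326 in antagonist libraries against 306 to 537 in vehicle libraries. Endothelial markers fell in 2 of 8 and rose in 0, muscle and adipocyte markers rose in 1 of 9 and 1 of 8 and fell in 0, and of 7 Schwann cell markers 1 was lower and 2 were higher. Keratinocyte markers, the defining genes of epidermis, summed to 27120 to 32870 TPM in antagonist libraries against 24950 to 38970 TPM in vehicle libraries. Of these 11 genes 0 were called in either direction by edgeR, and likewise 0 at an unadjusted p under 0.05 and 0 by DESeq2. In whole skin, fewer cells of a type and less RNA per cell cannot be told apart.

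Of the 10 genes 6 fell in antagonist ears (Jak2, Jak3, Stat5a, Socs1, Socs3 and Cish) and 0 rose by edgeR with the adjustment over all genes, against 17.4% of all tested genes lower and 16.7% higher. DESeq2, and edgeR at an unadjusted p under 0.05, gave the same counts of 6 and 0. The median log2 fold change, antagonist over vehicle, was −0.29 over the 10 and 0.00 over all tested genes. In 5 of the 10, the called genes other than Stat5a, every antagonist library lay below every vehicle library. This arrangement was shown by 10.8% of all tested genes, called or not. The changes ran from 1.18-fold for Cish to 2.16-fold for Socs3. Jak1, Tyk2, Stat3 and Socs2 did not pass.

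**Figure D1:**
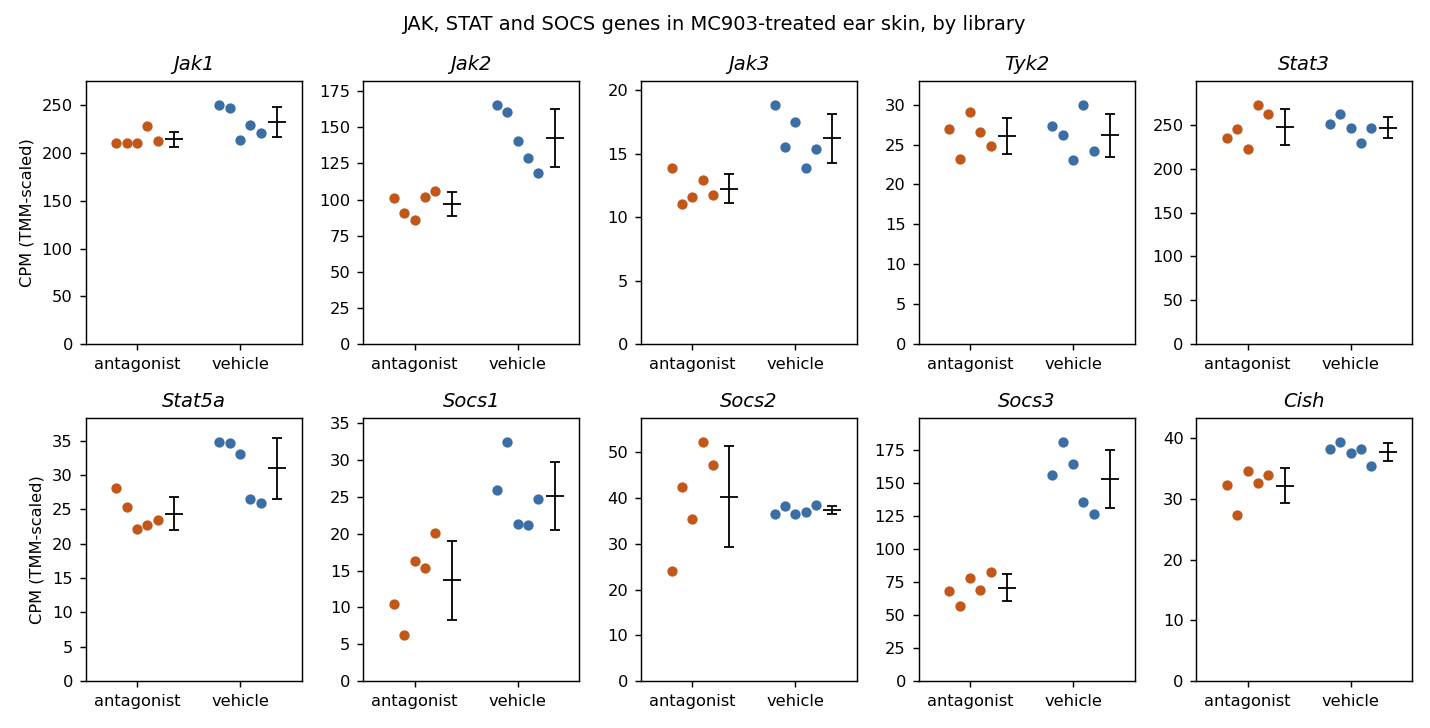
Counts scaled to library size (CPM with TMM factors, vertical axes start at 0) of the 10 genes in 5 antagonist and 5 vehicle libraries, 1 point a library in the order of their numbers, with the mean and SD beside each group. Socs3 and Jak2 show the clearest gaps between the groups, Jak3 and Cish narrow ones, and Stat3 and Tyk2 overlap fully.

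Jak1, the kinase shared by most interferon and interleukin receptors, was the kinase with the highest TPM in both groups. Counts scaled to library size (CPM) were 211, 210.3, 210.5, 229 and 212 in antagonist ears, against 250.5, 247, 214, 229.5 and 221 CPM in vehicle ears. Antagonist libraries other than replicate 8 lay below all vehicle libraries, and replicate 8 lay within the vehicle range, so the groups overlapped. The log2 fold change of −0.11 ± 0.06 (SE) had an adjusted p of 0.155 by edgeR, with a 95% interval of −0.25 to 0.016.

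Jak2, the kinase of the receptors for growth hormone, erythropoietin and the GM-CSF family and a partner in interferon gamma signalling, fell most among the kinases. It had 101, 90.5, 86.0, 102 and 106 CPM in antagonist ears, against 165, 160.4, 140.5, 128 and 118 CPM in vehicle ears. All antagonist libraries were lower, and within the vehicle group replicates 3 and 9 were the highest and 12 the lowest. The fall was 1.47-fold (log2 fold change −0.56 ± 0.10, adjusted p = 0.00272 by edgeR). It stayed between −0.61 and −0.49 when 1 library was left out in turn.

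Jak3, which pairs with the common gamma chain and is found mainly in lymphoid and myeloid cells, was the scarcest of the 10 per length, at 5.37 ± 0.768 TPM in antagonist ears and 7.16 ± 0.603 TPM in vehicle ears (SD, n = 5 each). It had 13.9, 11.1, 11.6, 12.9 and 11.8 CPM in antagonist ears, against 18.8, 15.5, 17.5, 13.9 and 15.4 CPM in vehicle ears. The groups were separated only by the narrow gap between antagonist replicate 4, at 13.88 CPM, and vehicle replicate 11, at 13.89 CPM. The log2 fold change was −0.40 ± 0.10 (adjusted p = 0.0113 by edgeR). Tyk2, a kinase of type I interferon and interleukin 12 family receptors, had overlapping groups, with 26.1 ± 2.23 CPM in antagonist ears and 26.2 ± 2.69 CPM in vehicle ears (SD, n = 5 each). Its log2 fold change was −0.003 (95% interval −0.19 to 0.18, adjusted p = 0.979 by edgeR).

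Jak2 made up 28.6 ± 1.62% of the summed TPM of the 4 kinases in antagonist ears and 34.8 ± 2.23% in vehicle ears, and Jak1 59.4 ± 1.41% in antagonist ears and 54.0 ± 1.90% in vehicle ears (SD, n = 5 each), values given with no test. The ratio of Jak3 to Jak1 TPM within a library, which does not depend on how libraries are scaled, averaged 0.0710 in antagonist and 0.0874 in vehicle ears. Its log2 difference was −0.30 (exact two-sided permutation test over all assignments of 5 against 5, p = 0.0238, adjusted over 4 ratios 0.0317). This call was lost, with adjusted permutation p of 0.0529 to 0.0635, when antagonist replicate 6, 7, 8 or 10 or vehicle replicate 3, 10 or 12 was left out.

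Stat3, which carries interleukin 6, 10 and 22 family signals and is active in keratinocytes, was not called. It stood at 235, 245, 222, 273 and 263 CPM in antagonist ears, against 251, 262, 247, 229 and 246 CPM in vehicle ears. The ranges overlapped almost wholly, and the log2 fold change, 0.003 ± 0.067, had a 95% interval of −0.14 to 0.15 (edgeR, adjusted p = 0.976).

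Stat5a, a mediator of common gamma chain, GM-CSF and growth hormone family signals, was lower by a small amount. It had 28.1, 25.4, 22.2, 22.8 and 23.4 CPM in antagonist ears, against 34.9, 34.6, 33.0, 26.5 and 26.0 CPM in vehicle ears. Vehicle replicates 11 and 12 lay within the range of the antagonist libraries, of which replicate 4 was the highest. The log2 fold change was −0.35 ± 0.11 (adjusted p = 0.0268 by edgeR). It missed the threshold, at adjusted p of 0.0564 to 0.0715, when antagonist replicate 7, 8 or 10 or vehicle replicate 3, 9 or 10 was left out.

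Socs3, the inhibitor that STAT3 induces and that binds gp130 and its relatives, fell more than any other gene of the set. It had 67.9, 56.5, 78.1, 68.8 and 82.7 CPM in antagonist ears, against 156, 181.5, 165, 136 and 127 CPM in vehicle ears. The highest antagonist library stayed well below the lowest vehicle library. The fall was 2.16-fold (log2 fold change −1.11 ± 0.12, adjusted p = 0.000595 by edgeR), which placed Socs3 at rank 31 of 15174 genes by p. It lay between −1.17 and −1.03 when 1 library was left out in turn, and in the authors' deposited table it stands at −1.107 with a q-value of 3.31e-15.

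Socs1, the inhibitor that blocks JAK1, JAK2 and TYK2 directly and is best known for limiting interferon signals, varied more among antagonist ears. It had 10.5, 6.24, 16.3, 15.4 and 20.05 CPM there, against 26.0, 32.5, 21.3, 21.2 and 24.7 CPM in vehicle ears. All antagonist libraries were lower, with replicates 4 and 6 the lowest and replicate 10 the closest to the vehicle group. The log2 fold change was −0.88 ± 0.26 (adjusted p = 0.0228 by edgeR), and −0.77 with an adjusted p of 0.0523 without vehicle replicate 9. The summed TPM of 16 interferon-stimulated genes also differed among these libraries, at 124, 265, 931, 1013 and 2196 in antagonist ears, against 582, 1277, 340, 1101 and 1273 in vehicle ears. Antagonist replicates 4 and 6 were low and replicate 10 high in both. When the mean log2 level of those genes entered the fit, an alternative added after their values were seen, Socs1 stood at −0.81 ± 0.19 (adjusted p = 0.00725 by edgeR).

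Cish, which STAT5 induces and which damps receptors that use it, fell slightly. It had 32.3, 27.3, 34.6, 32.5 and 33.9 CPM in antagonist ears, against 38.3, 39.4, 37.5, 38.3 and 35.4 CPM in vehicle ears. The gap between antagonist replicate 7 and vehicle replicate 12 was small. The log2 fold change was −0.23 ± 0.07 (adjusted p = 0.0241 by edgeR). It lost its call without antagonist replicate 6 (adjusted p = 0.0508), vehicle replicate 3 (0.0561) or vehicle replicate 9 (0.0526).

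Socs2, the inhibitor of growth hormone receptor signalling, was not called. It had 24.0, 42.5, 35.4, 52.4 and 47.1 CPM in antagonist ears, against 36.6, 38.2, 36.5, 37.0 and 38.6 CPM in vehicle ears. Antagonist libraries lay on both sides of a tight vehicle group, with an SD of 0.44 on the log2 CPM scale against 0.036. The log2 fold change was 0.11 ± 0.17 (95% interval −0.26 to 0.47, adjusted p = 0.643 by edgeR).

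Sequences near the start sites of Socs3, Cish and Socs1 are shown because STAT dimers are known to bind palindromes of the form TTCNNNGAA. RefSeq windows of 300 bases, 250 before and 50 after the start, were found for 9 of the 10 genes and searched for TTCNNNGAA and TTCNNNNGAA, both of which read the same on either strand. TTCNNNGAA occurred in 2 of the 9 genes, Socs3 and Cish, and in 8.30% of 32851 windows of the same length, while TTCNNNNGAA occurred in 0 of the 9 genes and in 6.95% of all windows. In Socs3 the match begins 154 bases before the start of the RefSeq transcript used, on the minus strand. The deposited table lists Socs3 on the plus strand, and both its model and the RefSeq gene extend past the match, so the distance holds for that transcript start alone. In Cish, the 2 matches begin at bases 1 and 12 of the RefSeq transcript, and the model of Cish in the deposited table begins farther upstream. The stretches below are on GRCm38.p6, Socs3 at chr11:117969467-117969566 and Socs1 at chr16:10785537-10785636 on the minus strand and Cish at chr9:107296659-107296688 on the plus strand, with matches in capitals.
Socs3: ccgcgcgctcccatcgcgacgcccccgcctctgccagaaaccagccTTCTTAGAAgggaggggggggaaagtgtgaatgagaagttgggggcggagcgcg
Cish: TTCCTGGAAagTTCTTGGAAatctgtcaaa
Socs1: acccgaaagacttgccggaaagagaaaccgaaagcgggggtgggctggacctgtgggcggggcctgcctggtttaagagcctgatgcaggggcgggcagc
The Socs1 stretch, which ends just before the start, holds neither form. A match is a run of letters and not a measured site, and the windows without one say nothing of other places where a STAT may bind.

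Levels per length placed Socs3 at the top of the set in vehicle ears. It averaged 43.3 ± 6.64 TPM in antagonist ears and 94.7 ± 14.5 TPM in vehicle ears (SD, n = 5 each), so that in antagonist ears it came after Stat3 (91.7 ± 9.61 TPM) and Jak1 (75.4 ± 4.73 TPM). In vehicle ears its range overlapped that of Stat3 (92.2 ± 5.81 TPM), so those neighbours were not ordered beyond their spread. Jak2 came next after these 3 in both groups, and Cish, Stat5a, Tyk2 and Jak3 took the last places in that order in both. Of neighbours in the order, the ranges stood apart between Jak1 and Socs3, Cish and Stat5a, and Tyk2 and Jak3 in antagonist ears, and between Jak1 and Jak2, Socs2 and Cish, Cish and Stat5a, and Tyk2 and Jak3 in vehicle ears.

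**Figure D2:**
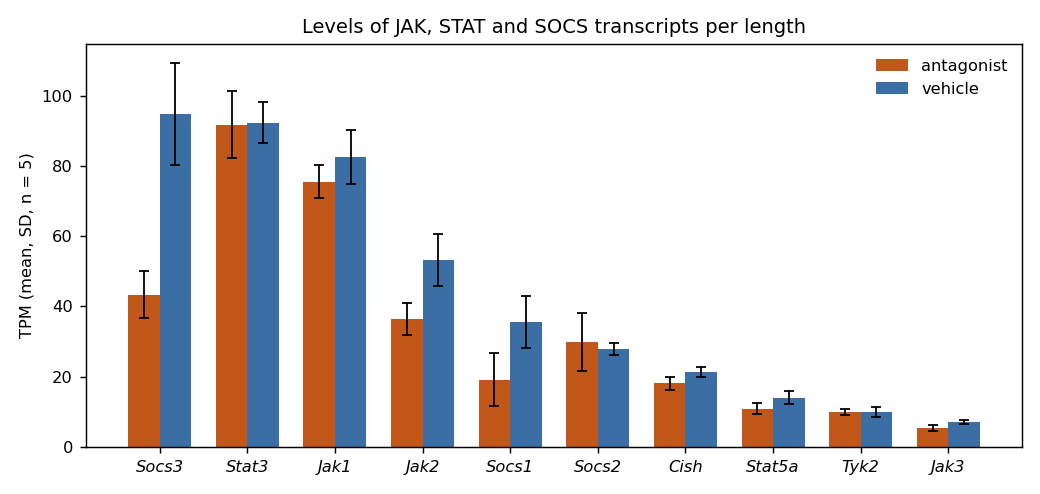
Mean TPM with SD (n = 5) of the 10 genes in antagonist and vehicle ears, ordered by their level in vehicle ears. Socs3 stands at 43.3 TPM with antagonist and 94.7 TPM with vehicle, while Stat3 stands at about the same height in both.

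The summed TPM of the 4 inhibitors was 110.4 ± 19.0 in antagonist ears and 179 ± 22.6 in vehicle ears (SD, n = 5 each). Socs3 supplied 39.5 ± 3.86% of it with antagonist and 52.7 ± 2.94% with vehicle, and Socs2 27.1 ± 6.55% with antagonist and 15.7 ± 1.59% with vehicle, also with no test.

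Ratios within a library compared Socs3, Socs1 and Cish each with a STAT or kinase it is tied to. Socs3 to Stat3 was 0.477, 0.381, 0.581, 0.416 and 0.520 in antagonist ears, against 1.03, 1.15, 1.11, 0.986 and 0.853 in vehicle ears. No library of one group reached the other, and the log2 difference of −1.12 had the smallest p that these group sizes allow (exact two-sided permutation test, p = 0.00794, adjusted over 4 ratios 0.0317). Because Stat3 stood at 0.003 and Socs3 at −1.11 on the log2 scale, this ratio mostly repeats the fall of Socs3 and adds little to it. Socs1 to Jak1 averaged 0.253 in antagonist and 0.428 in vehicle ears, a log2 difference of −0.86 (exact permutation p = 0.0159, adjusted 0.0317). That call was lost, at an adjusted permutation p of 0.0529, without vehicle replicate 3, 9, 10 or 12. Cish to Stat5a averaged 1.68 in antagonist and 1.54 in vehicle ears, a log2 difference of 0.12 (exact permutation p = 0.294, adjusted 0.294), and its groups overlapped.

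**Figure D3:**
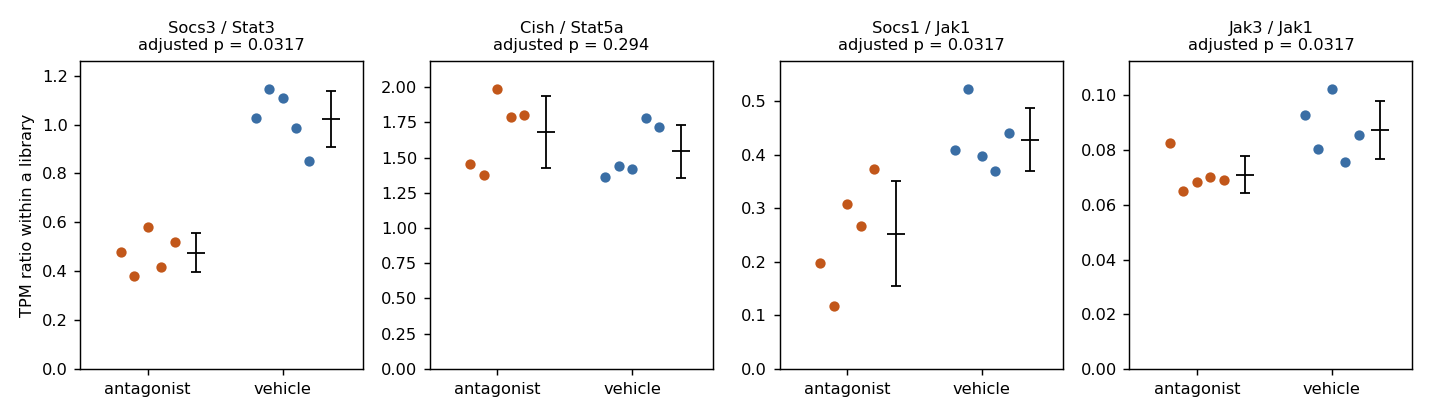
Ratio of TPM of 2 genes within each library (axes start at 0), with mean and SD and the exact permutation p adjusted over 4 ratios. Socs3 over Stat3 lies between 0.381 and 0.581 in antagonist libraries and between 0.853 and 1.15 in vehicle libraries, while Cish over Stat5a overlaps.

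Of 8 other STAT and SOCS genes 2 fell and 1 rose, against 17.4% of all tested genes lower and 16.7% higher, so these counts were near the share of all genes. Stat4, the STAT of interleukin 12 signalling in T cells, had 1.45, 2.05, 1.31, 3.71 and 1.97 CPM in antagonist ears, against 5.02, 4.19, 4.85, 4.21 and 4.86 CPM in vehicle ears. The groups did not overlap, and the log2 fold change was −1.14 ± 0.25 (adjusted p = 0.00618 by edgeR). Stat5b, the close relative of Stat5a, was lower by less (−0.17 ± 0.06, adjusted p = 0.0401 by edgeR), a call lost at adjusted p of 0.0659 to 0.111 without antagonist replicate 6, 7, 8 or 10 or vehicle replicate 3, 9 or 10. Socs7 was higher (0.22 ± 0.08 on the log2 scale, adjusted p = 0.0434 by edgeR), a call lost at 0.0638 to 0.0916 without antagonist replicate 4, 6, 8 or 10 or vehicle replicate 3, 9, 10 or 12. Scaling by library totals alone, using no filter on low counts and both limma fits on TPM also ended the calls of Stat5b (adjusted p of 0.0605 to 0.130) and Socs7 (0.0511 to 0.202), and limma-voom (0.0810) and the interferon-stimulated score as a covariate (0.0503) that of Socs7. Stat6, the STAT of interleukins 4 and 13, stood at 142 CPM in antagonist and 127 CPM in vehicle ears (log2 fold change 0.16 ± 0.06, adjusted p = 0.0631), and Socs5 at −0.34 ± 0.13 (adjusted p = 0.0562 by edgeR). Both passed with DESeq2 (adjusted p = 0.0343 and 0.0425), Socs5 also with limma (0.0439 to 0.0459) and with the interferon-stimulated score as a covariate (0.0192), and with edgeR when 1 library was left out, Stat6 without antagonist replicate 7 or vehicle replicate 10 (0.0428 and 0.0376) and Socs5 without antagonist replicate 4 or 7 or vehicle replicate 11 (0.0166 to 0.0490).

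Stat2, which carries interferon signals and is itself interferon-induced, was not called but spread widely. It had 17.0, 22.6, 50.1, 57.3 and 113 CPM in antagonist ears, against 35.1, 55.7, 27.2, 44.4 and 48.9 CPM in vehicle ears. Its antagonist libraries ran in the same order as the sum of interferon-stimulated genes and lay on both sides of the vehicle range. Its log2 fold change was 0.30 ± 0.43, with a 95% interval of −0.65 to 1.25 (adjusted p = 0.625 by edgeR). It stood at −0.20 without antagonist replicate 10, at −1.12 with the cartilage covariate and at 2.20 with the leukocyte covariate, none of them called. With the interferon-stimulated score in the fit it was called higher, at 0.33 ± 0.11 (adjusted p = 0.0388 by edgeR). Socs4 and Socs6 did not pass either, with log2 fold changes of −0.18 ± 0.13 and 0.009 ± 0.065 (adjusted p = 0.312 and 0.930 by edgeR).

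**Figure D4:**
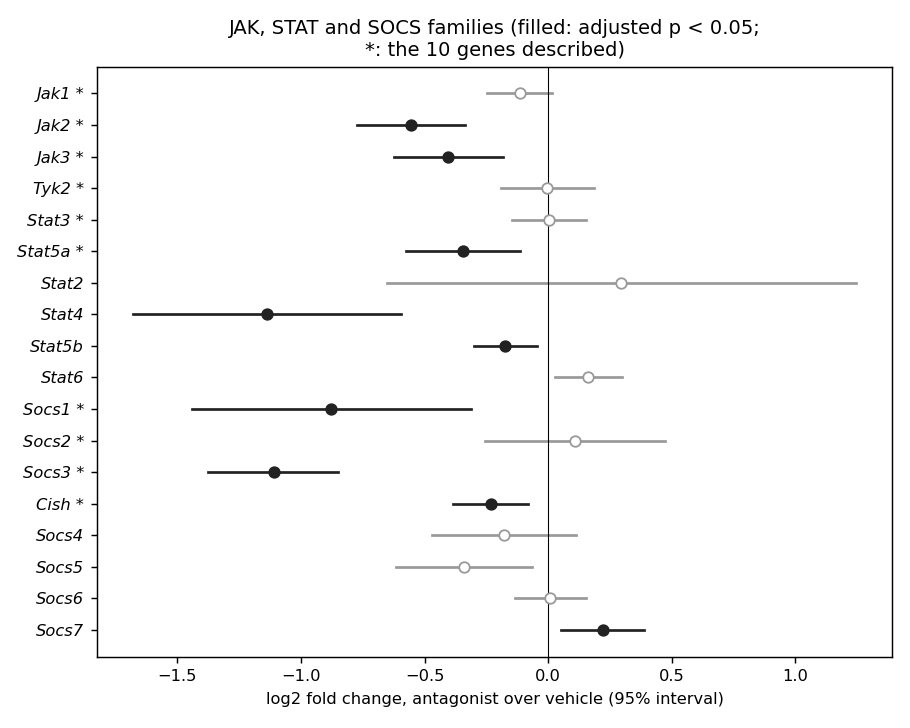
Log2 fold change, antagonist over vehicle, with 95% interval from edgeR for the 10 genes (starred) and 8 relatives, filled where the adjusted p is under 0.05. Socs3, Stat4, Socs1 and Jak2 lie farthest to the left, Stat2 has the widest interval, and Socs7 is the one filled point to the right of 0.

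Of 11 phosphatases, adaptors and PIAS proteins that restrain the pathway by other routes, 2 fell and 2 rose, with a median log2 fold change of −0.04. These shares, 18.2% each way, were near those of all tested genes, 17.4% lower and 16.7% higher. Ptpn2, the phosphatase that dephosphorylates JAK1 and JAK3, fell by 0.35 ± 0.06 on the log2 scale, with 31.7 to 36.4 CPM in antagonist and 38.0 to 45.2 CPM in vehicle ears. Ptprc, which encodes the leukocyte phosphatase CD45, fell by 1.20 ± 0.15, and Pias4 rose by 0.32 ± 0.08, with Pias3 as the other riser at 0.24 ± 0.06 (adjusted p of 0.000874 to 0.0157 for the 4 by edgeR).

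Receptor transcripts of the pathway were lower in 25 of 42 tested genes and higher in 5, with a median log2 fold change of −0.33. Of 9 genes listed as the common gamma chain group 7 fell and 0 rose, with a median of −0.71. The 7 include Crlf2, of the thymic stromal lymphopoietin receptor (−0.44 ± 0.11), which pairs with Il7r and not with the common gamma chain. Il2rg, the common gamma chain itself, had 28.5, 21.4, 37.0, 32.7 and 35.8 CPM in antagonist ears, against 78.0, 68.5, 67.4, 65.8 and 59.5 CPM in vehicle ears. The groups were well apart (log2 fold change −1.13 ± 0.14, adjusted p = 0.000731 by edgeR). Il4ra, a chain shared by the receptors of interleukins 4 and 13, had a log2 fold change of −0.71 ± 0.16 and Il2rb, of the interleukin 2 and 15 receptors, one of −1.08 ± 0.25 (adjusted p = 0.00679 and 0.00759 by edgeR).

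Receptors that pair with Jak2 through the common beta chain or as homodimers fell in 6 of 8 and rose in 0, with a median of −0.59. Csf2rb, the common beta chain, had 117, 73.8, 90.5, 109.7 and 92.5 CPM in antagonist ears, against 189, 182, 181, 150.4 and 123 CPM in vehicle ears. It lay lower in every antagonist library (log2 fold change −0.77 ± 0.14, adjusted p = 0.00321 by edgeR). Csf2ra and Csf2rb2, the partner and a close copy, stood at −0.46 ± 0.09 and −0.73 ± 0.15. Reads of Csf2rb and Csf2rb2 may be divided between these similar genes. Ghr and Prlr, the growth hormone and prolactin receptors, were the 2 not called, at 0.036 ± 0.096 and 0.083 ± 0.096.

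The list of gp130 and related receptors, on some of which SOCS3 acts, went both ways, with 4 of 10 lower and 2 higher and a median of −0.01. Csf3r and Il31ra are listed as relatives and do not signal through gp130. Csf3r, the G-CSF receptor of neutrophils, had 25.1, 15.1, 15.1, 20.06 and 22.6 CPM in antagonist ears, against 97.0, 86.3, 81.0, 57.2 and 49.9 CPM in vehicle ears. It was low in every antagonist library (log2 fold change −1.92 ± 0.21, adjusted p = 0.000595 by edgeR). Il31ra, a receptor of the itch cytokine interleukin 31, had 0.594 to 1.01 CPM in antagonist and 1.74 to 3.12 CPM in vehicle ears (log2 fold change −1.39 ± 0.21). Cntfr, the ciliary neurotrophic factor receptor, rose by 1.12 ± 0.13, with 27.9 to 34.6 CPM in antagonist and 10.9 to 17.5 CPM in vehicle ears. Il6st, which encodes gp130 itself, stood at −0.18 ± 0.09 (adjusted p = 0.141 by edgeR).

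Class 2, interleukin 13 and interleukin 12 family receptors fell in 8 of 15 and rose in 3, with a median of −0.26. Il13ra2, a decoy for interleukin 13, fell by 1.72 ± 0.26 on the log2 scale and Ifngr2, a chain of the interferon gamma receptor, by 0.35 ± 0.06, while Ifnlr1, of the interferon lambda receptor, rose by 0.82 ± 0.15 (adjusted p = 0.00149, 0.00272 and 0.00331 by edgeR).

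Of 37 listed ligands 19 could be tested. Of these 7 fell and 1 rose, with a median of −0.77. Il24, an interleukin 10 family cytokine, had 5.11, 2.45, 6.29, 4.85 and 10.2 CPM in antagonist ears, against 38.0, 52.2, 21.4, 27.8 and 21.8 CPM in vehicle ears. Its relative Il19 had 3.10, 3.89, 5.63, 3.81 and 8.97 CPM in antagonist ears, against 37.6, 24.7, 19.1, 16.4 and 26.5 CPM in vehicle ears. Both were several times lower in antagonist ears with no overlap (log2 fold changes −2.48 ± 0.35 and −2.29 ± 0.30, adjusted p = 0.00126 and 0.00102 by edgeR). Ebi3, a chain of interleukin 27, fell by 0.84 ± 0.14. Il13, Il31, Il22, Il5 and Csf2 did not pass the filter on low counts and were not tested.

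Genes known to respond to the STATs went in both directions or were not called. Of 21 STAT3-responsive genes 8 fell and 2 rose (median −0.18), of 13 STAT5-responsive genes 4 fell and 4 rose (median 0.02), and of 16 interferon-stimulated genes 0 were called (median 0.09). The last count was also 0 by DESeq2 and 0 at an unadjusted p under 0.05 in edgeR. Some genes are counted in more than 1 list, so the counts are not separate results. Among them are Il4ra and Il2ra, also listed as receptors, Osm, also listed as a ligand, and Pim1, in both the STAT3 and STAT5 lists. Timp1, an inhibitor of matrix proteases, had 49.9, 55.8, 35.0, 28.5 and 46.9 CPM in antagonist ears, against 170.3, 139, 207, 71.1 and 103 CPM in vehicle ears. It lay lower in every antagonist library (log2 fold change −1.68 ± 0.28, adjusted p = 0.00205 by edgeR), and Mcl1, a survival gene, was lower by less (−0.27 ± 0.06). Myc moved the other way, with 98.4, 132, 103, 112 and 127 CPM in antagonist ears, against 76.6, 85.0, 85.1, 91.3 and 72.1 CPM in vehicle ears, and no overlap (log2 fold change 0.48 ± 0.09, adjusted p = 0.00411 by edgeR). Among STAT5-responsive genes Foxp3, the regulator of regulatory T cells, stood at −1.41 ± 0.25, Igf1 at −1.10 ± 0.22 and Osm, a gp130 cytokine, at −1.22 ± 0.24 (adjusted p of 0.00259 to 0.00422 by edgeR).

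Several of these falls stood beside the fall of leukocyte markers. With the mean log2 CPM of the leukocyte markers as a covariate, 0 of 15174 genes were called (764 at an unadjusted p under 0.05), and Socs3 stood at −0.55 and Jak2 at −0.077, while Jak3, Socs1 and Cish turned to 0.022, 0.92 and 0.12. Stat5a stood at −0.29, against −0.35 without the covariate. The adjusted p of these 6 ran from 0.883 to 0.992 by edgeR. SEs were wider in this fit, for Jak1 0.161 against 0.0597 and for Stat5b 0.158 against 0.0586 without the covariate. How far each value moved is therefore uncertain. With the cartilage markers as the covariate 0 genes were called (1841 at an unadjusted p under 0.05), and Socs3, Jak2 and Socs1 stood at −1.31, −0.71 and −1.24 (adjusted p of 0.120 to 0.355) and Stat5a, Jak3 and Cish at −0.38, −0.31 and −0.22 (adjusted p of 0.463 to 0.523 by edgeR). The summed levels of both lists were lower in antagonist ears, so the part of the antagonist and the part of these markers cannot be told apart in these fits.

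Genes whose profile over the 10 libraries was most like that of Socs3 were B3gnt5, a glycosyltransferase, Il2rg, and Ccl21a, a chemokine that draws dendritic and T cells. Their centred log2 CPM differed from that of Socs3 by a root mean square of 0.136, 0.140 and 0.141 among 13518 genes compared. For Jak3 the nearest were Apbb1ip, an adaptor of leukocyte adhesion, Rap2b and Elk3, at 0.0655, 0.0690 and 0.0708. All of these were called lower in antagonist ears, as picking them by likeness to Socs3 and Jak3 in the same libraries makes likely.

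Positions follow the deposited table, whose gene ends match mouse build GRCm38 for most genes. Socs3 lies on chromosome 11 from 117966079 to 117973506, Socs1 on chromosome 16 from 10783808 to 10785536, Cish on chromosome 9 from 107293010 to 107302784, Jak2 on chromosome 19 from 29251803 to 29313095 and Jak3 on chromosome 8 from 71676383 to 71690577. Stat5a, from 100859351 to 100885169 on chromosome 11, is next to Stat3, from 100886806 to 100939594. Jak1 lies on chromosome 4 from 101151974 to 101265282, Tyk2 on chromosome 9 from 21104068 to 21131393 and Socs2 on chromosome 10 from 95383903 to 95417321. The models of Tyk2 and Raver1, Jak1 and Raver2, Socs1 and Tnp2, and Jak3 and Insl3 overlap. Among the relatives, those of Stat2 and Apof, Stat6 and Nab2, Socs4 and Mapk1ip1l, and Stat4 and a neighbouring gene overlap too. With no strand step stated, the reads of such pairs may not have been separated, which was not tested.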

How the data were processed

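RNA from ear skin was selected with oligo(dT) beads and sequenced as DNA nanoballs, per the labels' protocols, which state no step that marks strand. HISAT appears, without a version, per the submitters' processing notes. The counting tool and genome build were not given in the sources used here. The authors deposited expected counts (estimated counts that need not be whole), TPM and FPKM for each library, per the file headers, with group means. The deposited log2 fold changes, p-values and q-values come from DESeq2, per the file headers, and were used only where named. The deposited FPKM values entered no result. Library columns were assigned by sample title (0 unmatched), and 1 empty line was skipped.

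Expected counts were rounded. Genes were kept by filterByExpr (about 10 counts in enough libraries and 15 in total), scaled by TMM and tested in R 4.3.3 with the quasi-likelihood F test of edgeR 4.0.16, adjusting by Benjamini-Hochberg over all 15174 genes kept. The SE is the log2 fold change over the root of F. The code was tested on simulated data. Log2 CPM carry a prior count of 2. Ratios used TPM, with an exact permutation test. Intervals cover the spread between libraries, and the closest pair of libraries had a mean squared difference 21.4 times what sampling noise gives.

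The 10 genes and the 19 lists with 254 entries were chosen with earlier results of these data known. Named are the 10 genes, 8 relatives, the 3 genes of smallest p in a list and the 3 nearest profiles of Socs3 and Jak3, of which the marker lists are mostly given by counts. Others are said to be chosen after their values were seen or stand as pathway members of a list, and some items of the lists are not reported here. Table positions shared chromosome and start or end with RefSeq on GRCm38.p6 for 18594 of 19645 matched genes, and promoter windows are RefSeq's. Alternatives were other normalizations and filters, DESeq2 1.42.0, limma 3.58.1 (voom with sample weights, trend on log2 TPM), robust estimation, marker scores as covariates and each library left out. The interferon-stimulated score was added after seeing the data.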

Additional observations from a re-analysis of the deposited data

Results flagged for a closer look

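Among 156 groups of 5 libraries, 4 held a library set apart from the other 4 by more than Dixon's 95% limit, and chance alone flags about 1 group in 20. Jak1 stood at 228.8 CPM in antagonist replicate 8, with the next antagonist library at 212.5 CPM. Ifngr2 stood at 80.35 CPM in antagonist replicate 7, with the next at 72.26 CPM. Comp, a cartilage marker, stood at 34.42 CPM in antagonist replicate 4, with the next at 18.01 CPM. Socs6 was lowest in vehicle replicate 9, at 45.65 CPM, with the next vehicle library at 52.76 CPM.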

How the results depend on the processing

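No paired analysis was possible because antagonist and vehicle samples share 1 replicate number. Other normalizations, filters, DESeq2, limma and robust estimation called 5 or 6 of the 10 genes. With the cartilage score or the leukocyte score as a covariate, the genes called were 0, lower 0 and higher 0, and of the 10 genes 0 were called and 0 called lower. With 1 library left out, the number called, all lower, ran from 3 (without vehicle replicate 9, when Stat5a, Socs1 and Cish were lost) to 6. The log2 ratio of Socs1 to Jak1 ran from −1.02 to −0.61 and that of Jak3 to Jak1 from −0.35 to −0.24. With the leukocyte covariate the log2 fold change of some genes called lower without it turned positive. These were Ptprc (0.0153), Il4ra (0.045), Il2rb (0.30), Csf2rb (0.034), Csf2rb2 (0.089), Osm (0.55) and Tie1 (0.13). Ptprc is itself part of the leukocyte score, so its loss of a fall is built into that fit. Stat5b (0.084), Jak3 (0.022), Socs1 (0.92), Cish (0.12), Rap2b (0.079) and Reg3g (0.66) turned as well. Some genes not called without the covariate also turned positive, among them Jak1 (0.126) and Socs4 (0.28). The cause was not tested. Cish also missed the threshold in both limma fits on TPM (adjusted p = 0.0541 and 0.0550). Genes under the filter on low counts were not tested, among them 18 of the 37 listed ligands, and whether depth or low abundance set this was not tested.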

Other observations

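Some further genes of the lists are given here, chosen after their values were seen. Il22ra2, which encodes a soluble decoy for interleukin 22, averaged 29.7 CPM in antagonist ears and 7.07 CPM in vehicle ears, the largest rise among the listed receptors (log2 fold change 2.06 ± 0.39, adjusted p = 0.00331 by edgeR). Lifr, the receptor of leukemia inhibitory factor, averaged 105 CPM in antagonist ears and 64.6 CPM in vehicle ears (0.71 ± 0.14, adjusted p = 0.00474 by edgeR). Il6 averaged 3.75 CPM in antagonist ears and 13.2 CPM in vehicle ears (−1.81 ± 0.35, adjusted p = 0.00356 by edgeR), while its receptor chain Il6ra averaged 52.3 CPM in antagonist ears and 40.5 CPM in vehicle ears (0.37 ± 0.14, adjusted p = 0.0664, and 0.0459 by DESeq2).

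Among STAT5-responsive genes the 4 that rose were Pim1, Bcl2, Bcl2l1 and Gadd45g. Gadd45g, a stress and growth arrest gene, averaged 42.0 CPM in antagonist ears and 20.2 CPM in vehicle ears (log2 fold change 1.06 ± 0.26, adjusted p = 0.0103 by edgeR), and the survival gene Bcl2 averaged 26.3 CPM in antagonist ears and 16.9 CPM in vehicle ears (0.64 ± 0.15, adjusted p = 0.00959). Reg3g, an antimicrobial lectin listed as STAT3-responsive, averaged 0.848 CPM in antagonist ears and 4.68 CPM in vehicle ears (−2.46 ± 0.54, adjusted p = 0.00668 by edgeR).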
